A study of Mus musculus with 78 samples.

Results

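The genes described here mark the formative and primed states of pluripotency. They are Fgf5, Otx2, Pou3f1, Dnmt3a, Dnmt3b, Lef1, Sall2 and Zic2, 8 of the 55401 genes in each of 3 count tables. They were taken by name from a list, not by a cut on any measured value. That list was chosen with earlier results of these data known. The tables come from E14TG2a mouse embryonic stem cells (mESCs) in which both copies of Zfp143 carried a C-terminal FKBP degron with an HA tag and eGFP, so that 500 nM dTAG-V1 removed the ZFP143 protein, and DMSO was the control. Every library, controls included, came from these tagged cells, from clones grown out of single sorted cells whose number is not given, and none came from untagged cells.

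In the first table, transient transcriptome sequencing (TT-seq), which reads RNA labelled for 10 min with 2 mM 4-thiouridine, compared DMSO with 2, 6 or 24 h of depletion. In the second, RNA-seq compared DMSO with depletion for 24, 48 or 72 h in the same stem cell medium, which held LIF and inhibitors of MEK and GSK3. In the third (the RA table), RNA-seq was done after 24 h of DMSO or dTAG-V1, and again after a further 24 h with retinoic acid (RA) in N2B27 differentiation medium with DMSO or dTAG-V1 kept on, so that the depleted RA libraries had 48 h of dTAG-V1. No library had that medium without RA, and RA and the change of medium cannot be told apart. Each group held 2 libraries.

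Naive mESCs resemble the epiblast before implantation, and LIF with inhibition of MEK and GSK3 holds them there. On leaving this state cells pass through a formative phase, in which naive factors are shut off while Otx2, Pou3f1, Fgf5 and the de novo DNA methyltransferases are switched on, and then reach a primed state that can respond to signals for the germ layers. FGF signalling through ERK drives this exit and is blocked by the MEK inhibitor, while GSK3 inhibition stabilises β-catenin, the partner of LEF1.

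The count totals were 9721568 to 16532077 in TT-seq, 10261851 to 15316700 in the RNA-seq time course and 13890761 to 27089033 in the RA table. Levels below are CPM, read counts scaled to the library total with TMM. The summed level of 12 naive pluripotency genes was 5370 to 5383 CPM in the 2 DMSO libraries of the time course and 6081 to 6244 CPM in those of the RA table before RA, against 6.43 to 7.63 and 4.93 to 6.08 CPM for 7 primitive endoderm markers. The transcript of the tagged gene, Zfp143, was higher with dTAG-V1 in all 8 comparisons with DMSO, by 1.09 to 1.38 on the log2 scale, and since dTAG-V1 acts on the protein this transcript does not check its loss. In TT-seq, DMSO replicate 2 and 24 h replicate 2 stood apart from the other 6 libraries in Otx2, Zic2 and Lef1, though not in Sall2. Results that rest on these 2 libraries are given with and without them.

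The members lie on 6 autosomes (mm10, GENCODE annotation). Fgf5, which encodes a secreted fibroblast growth factor, spans chr5:98254184-98277030 on the plus strand. The transcription factor genes are Otx2 (homeodomain, chr14:48657677-48673819, minus strand), Pou3f1 (POU domain, chr4:124656807-124660655, plus strand), Zic2 (zinc finger, chr14:122475435-122479852, plus strand), Sall2 (zinc finger, chr14:52311172-52328762, minus strand) and Lef1 (HMG box, chr3:131110471-131224356, plus strand). Dnmt3a and Dnmt3b, the de novo DNA methyltransferases, span chr12:3806007-3914443 and chr2:153649450-153687730 on the plus strand.

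ZFP143 was not found at their promoters. None of the 8 had one of the study's ZFP143 peaks between 2000 bp before and 1000 bp after any transcript start, a window that held a peak in 14.6% of the 14963 protein-coding genes tested in at least 1 table. The nearest was 36685 bp from the start of Pou3f1 (chr4:124693492-124693823, 26.1-fold over input), and for the other 7 genes the nearest peak lay 296377 to 2495254 bp away. CTCF, the insulator protein, had a peak across a transcript start of Dnmt3a (chr12:3806198-3806612) and 1 at 2587 bp from a start of Sall2, while the other 6 members had none within 21747 bp. A CTCF peak lay in the same window in 22.3% of those genes.

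RefSeq promoter windows (GRCm38.p6) were held for 6 members, 15 windows in all, and the 250 bases upstream of each start were searched on both strands. The ZFP143 binding sequence (ACTACAA, any 1 base, TCC) was in 0 of the 15 windows, against 0.935% of all 32851 windows and 16.1% of the 1783 windows that a ZFP143 peak overlapped. The POU octamer ATGCAAAT, held by 1.6% of all windows, the TCF and LEF sequence CTTTGAT, held by 3.21%, and the RAR direct repeat (AGGTCA, any 5 bases, AGGTCA), held by 3 of all windows, were in none of the 15 either. The OTX sequence TAATCC, in 6.25% of all windows, was in 1 of the 4 windows of Otx2 and in no other. The upstream windows of Otx2 (chr14:48667645-48667894, minus strand), Dnmt3a (chr12:3806730-3806979, plus strand) and Dnmt3b (chr2:153649199-153649448, plus strand) are printed because these 3 genes were called after RA against before both in DMSO and in dTAG, as given below, and capitals mark CpG dinucleotides. No annotated exon overlaps them.
Otx2: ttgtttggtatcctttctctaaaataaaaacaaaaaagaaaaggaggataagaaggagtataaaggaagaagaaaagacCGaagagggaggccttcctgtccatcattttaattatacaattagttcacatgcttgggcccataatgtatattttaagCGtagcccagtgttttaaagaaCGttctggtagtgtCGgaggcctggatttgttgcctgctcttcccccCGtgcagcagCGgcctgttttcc
Dnmt3a: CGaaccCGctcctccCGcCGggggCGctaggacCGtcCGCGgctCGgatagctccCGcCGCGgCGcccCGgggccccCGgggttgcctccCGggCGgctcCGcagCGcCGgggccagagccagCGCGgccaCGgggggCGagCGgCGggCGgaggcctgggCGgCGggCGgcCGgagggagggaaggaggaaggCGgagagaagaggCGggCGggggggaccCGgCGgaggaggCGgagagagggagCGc
Dnmt3b: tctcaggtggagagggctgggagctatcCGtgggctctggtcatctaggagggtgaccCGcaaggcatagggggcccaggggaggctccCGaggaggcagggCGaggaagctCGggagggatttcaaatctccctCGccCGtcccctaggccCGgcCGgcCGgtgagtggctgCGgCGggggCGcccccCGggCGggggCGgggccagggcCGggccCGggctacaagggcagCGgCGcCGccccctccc
The Dnmt3a window held 38 CpG with 82.4% G and C and the Dnmt3b window 21 with 75.2%, whereas that of Otx2 held 6 with 42.0%, the median over all windows being 6 CpG and 52.4%. Further windows of Otx2, which annotated exons overlap, held 8, 14 and 9 CpG, and further ones of Dnmt3a 40 and 15.

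In the DMSO libraries the members differed widely in level. Per kilobase of exon, in the time course, Otx2 stood at 16.5 ± 0.56 CPM (SD, n = 2), Zic2 at 15.4 ± 0.0033, Dnmt3b at 11.4 ± 0.76, Dnmt3a at 3.06 ± 0.11 and Sall2 at 1.97 ± 0.014. Neighbours in this order did not overlap in their libraries. Lef1 at 0.052 ± 0.029, Pou3f1 at 0.040 ± 0.022 and Fgf5 at 0.018 ± 0.026 lay far below and within each other's spread, with 0 to 9 reads in a library. Exon length here joins all annotated exons of a gene, and the order depends on it. Without it Dnmt3b, at 55.3 and 60.8 CPM, stood above Zic2, at 44.3 and 44.3 CPM. In the RA table before RA the order was Dnmt3b at 36.1 ± 2.0, Zic2 at 16.7 ± 1.1, Dnmt3a at 3.86 ± 0.11, Sall2 at 3.08 ± 0.13, Otx2 at 2.46 ± 0.086, Pou3f1 at 0.42 ± 0.17, Lef1 at 0.28 ± 0.022 and Fgf5 at 0.097 ± 0.040 CPM per kilobase, so Otx2 led in the first table and came after Sall2 in the other. Both are DMSO controls, labelled as 24 h of DMSO in the RA table and with no time in the time course.

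The depletion time course asked how mRNA levels moved as ZFP143 stayed absent. Otx2, which helps to open enhancers of the formative state, fell while cells remained in the naive medium, and it was the member whose fall passed the test. Its level was 67.8 and 71.1 CPM in DMSO, then 54.6 and 57.5 (24 h), 33.2 and 34.9 (48 h) and 23.0 and 26.1 (72 h). The 4 groups did not overlap, and each later group lay below the one before. At 24 h the change against DMSO was −0.31 ± 0.07 (log2, SE) and not called. It was −1.03 ± 0.07 at 48 h (adjusted p = 1.71e-06, edgeR glmTreat against a fold change of 1.5) and −1.49 ± 0.08 at 72 h (adjusted p = 5.08e-12). In bulk libraries fewer cells with a transcript and less of it per cell cannot be told apart.

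**Figure D1:**
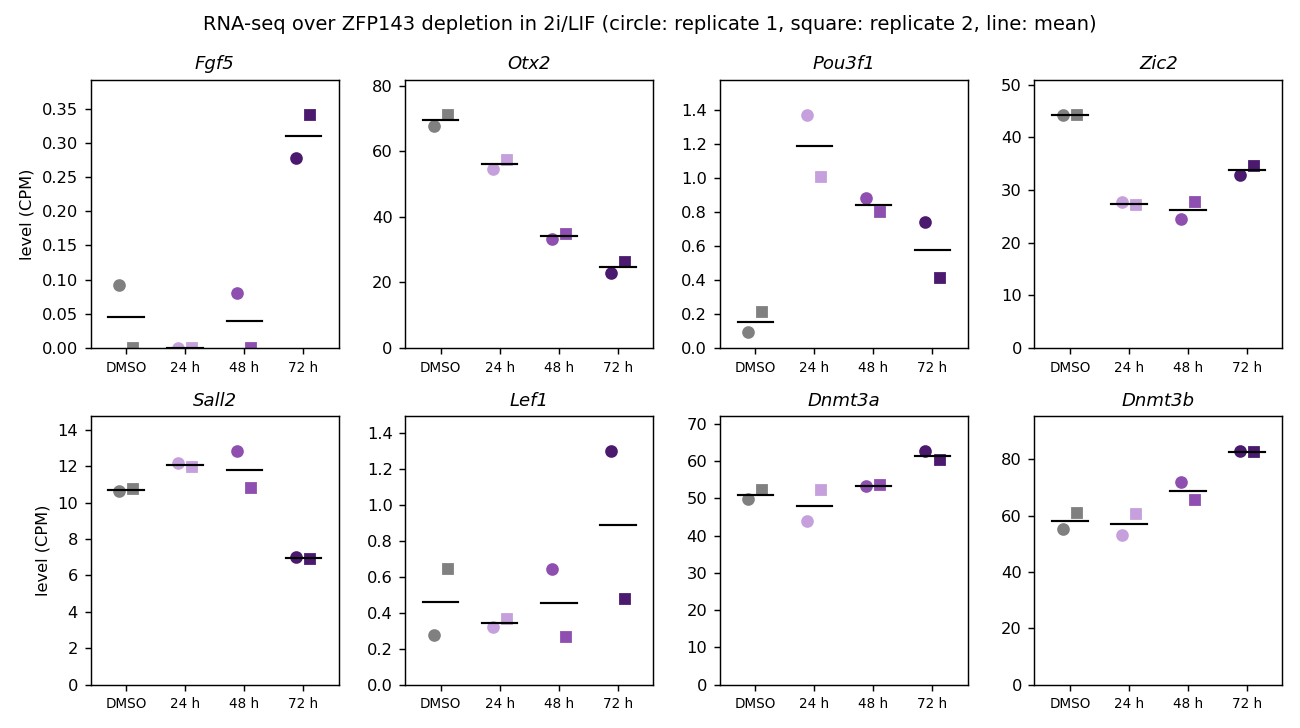
Level of each member in CPM (y axis, linear, scaled to each gene) in DMSO and at each time of depletion (x axis). Circles and squares are replicates 1 and 2 and lines are means; Otx2 steps down from 67.8 and 71.1 CPM to 23.0 and 26.1 CPM, while Dnmt3b ends at 82.8 and 82.7 CPM.

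Of the 5 members tested in this table, 1 was called lower at 48 h and the same gene at 72 h, and none higher, where 7.71% and 12% of the 13925 tested genes were called lower and 10.5% and 13.7% higher. At 24 h 0 members were called by edgeR, against 5.73% of tested genes in either direction, with 1 member (Zic2) at an unadjusted p under 0.05 and 0 called by DESeq2. The steps from 24 to 48 h and from 48 to 72 h called 0 members (3.23% and 1.71% of tested genes), with Otx2 (−0.72 ± 0.08) and Sall2 (−0.77 ± 0.14) respectively the only ones at an unadjusted p under 0.05 and 0 called by DESeq2.

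Zic2, a zinc finger factor of the epiblast and later of the neural plate, lay below its controls at every time without passing the test. It measured 44.3 and 44.3 CPM in DMSO, then 27.8 and 27.1 (24 h), 24.6 and 27.8 (48 h) and 32.8 and 34.6 (72 h), so all 6 depleted libraries lay below both controls. Its change was −0.69 ± 0.08 (adjusted p = 0.286) by 24 h, −0.76 ± 0.08 (adjusted p = 0.0251) by 48 h and −0.39 ± 0.08 (adjusted p = 1) by 72 h, none of which reached the threshold of 0.01 against a fold of 1.5. Under the thresholds of TT-seq, an adjusted p under 0.05 against no change and an absolute log2 change above 0.5, the first 2 were called.

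Sall2, a spalt-like zinc finger factor, had its lowest values at 72 h. The values were 10.7 and 10.8 CPM in DMSO, then 12.2 and 11.9 (24 h), 12.8 and 10.8 (48 h) and 7.03 and 6.89 (72 h). The 72 h libraries did not overlap any other, and the change against DMSO of −0.62 ± 0.14 was not called (adjusted p = 0.439), although it was under the thresholds of TT-seq (adjusted p = 0.00036).

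For the DNA methyltransferases no change passed the test. Dnmt3b measured 55.3 and 60.8 CPM in DMSO, then 53.3 and 60.5 (24 h), 72.1 and 65.6 (48 h) and 82.8 and 82.7 (72 h). The groups of 48 and 72 h lay above DMSO without overlap, yet the changes of 0.24 ± 0.07 and 0.51 ± 0.07 lay under a fold of 1.5 (adjusted p = 1 for both). Under the thresholds of TT-seq the 72 h change of Dnmt3b was called (adjusted p = 1.62e-07). Dnmt3a measured 49.7 and 52.2 CPM in DMSO, then 43.8 and 52.1 (24 h), 53.1 and 53.6 (48 h) and 62.5 and 60.2 (72 h), with a change of 0.26 ± 0.07 at 72 h that was not called.

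Fgf5, Pou3f1 and Lef1 were under the count filter of more than 10 reads in 4 libraries and were not tested. Fgf5, the classic marker of the formative epiblast, had 0 or 1 read in each of the 6 libraries up to 48 h and 3 and 5 reads at 72 h. Summed over a group this was 8 reads at 72 h against 1 in DMSO, a ratio of 7.83 with a 95% counting interval from 1.05 to 347, and the 24 h group with 0 reads allows up to 0.128 CPM. Pou3f1 had 1 and 3 reads in DMSO, then 17 and 11 (24 h), 11 and 9 (48 h) and 8 and 6 (72 h). Every depleted library of Pou3f1 thus lay above both controls, at ratios of 7.47 (2.61 to 29.3), 5.25 (1.76 to 21.1) and 3.42 (1.08 to 14.3) of the group sums, where the intervals cover counting error only. Lef1 had 3 to 14 reads, and its groups overlapped.

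TT-seq asked whether transcription of the members changed soon after ZFP143 was lost, and with the count filter no member passed the test. Of the 6 members tested, 0 were called at 2, 6 or 24 h by edgeR's quasi-likelihood test, where 2.6%, 3.23% and 6.11% of the 17870 tested genes were called, with 0 at an unadjusted p under 0.05 and 0 called by DESeq2. Without the count filter Otx2 was called higher and Zic2 lower at 2 h (adjusted p = 0.000847 and 0.00551) and at 6 h (0.000453 and 0.00019), and Lef1 lower at 6 h (0.00168), a setting that over all genes called 774 lower and 162 higher at 2 h, against 435 and 30 with the filter. Otx2 measured 29.7 and 6.32 CPM in DMSO, then 29.1 and 39.0 (2 h), 33.6 and 36.9 (6 h) and 28.6 and 8.36 (24 h). The low values are DMSO replicate 2 and 24 h replicate 2, the libraries that stood apart, and the other 6 libraries lay between 28.6 and 39.0.

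**Figure D2:**
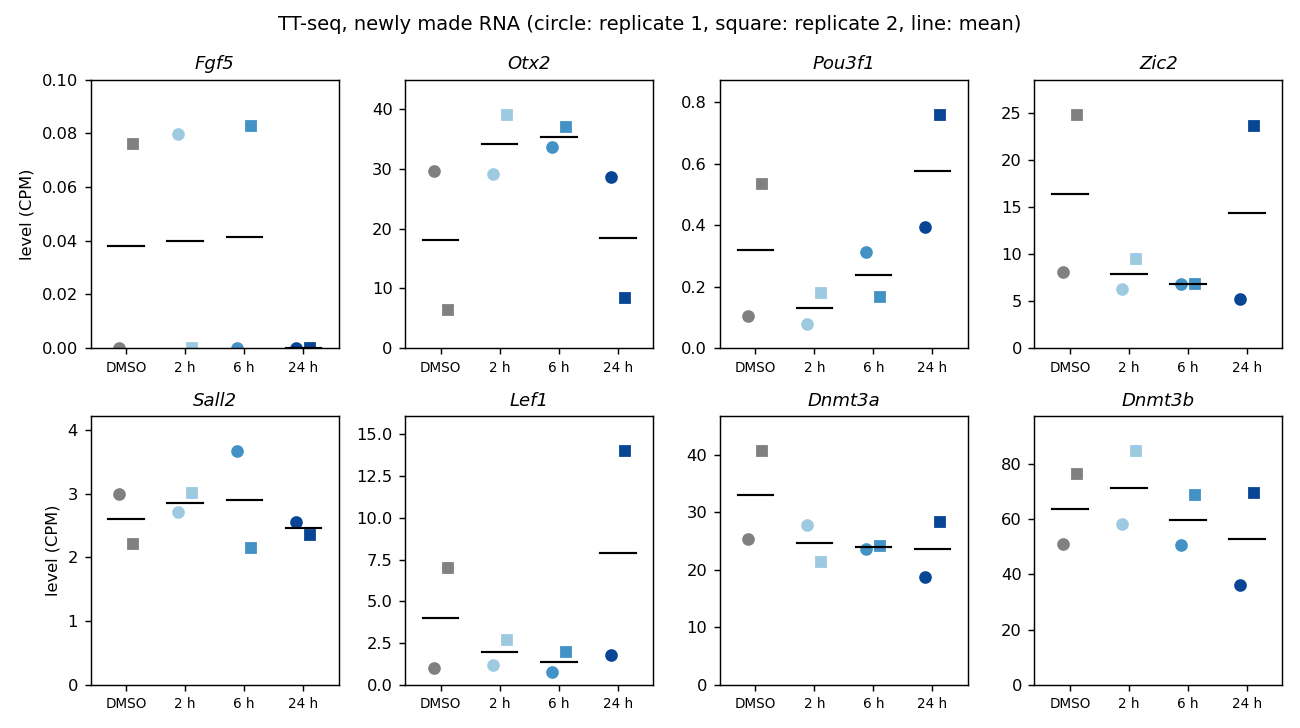
TT-seq level of each member in CPM (y axis, linear, scaled to each gene) in DMSO and at each time of depletion (x axis), with replicates 1 and 2 as circles and squares and lines as means. The squares of DMSO and 24 h depart from the rest: Otx2 is low there, at 6.32 and 8.36 CPM, while Zic2 and Lef1 are high.

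The same 2 libraries were the high ones for Zic2 and Lef1. Zic2 measured 24.8 CPM in DMSO replicate 2 and 23.6 in 24 h replicate 2, against 5.21 to 9.52 in the other 6. Lef1, a target as well as an effector of Wnt signalling, measured 7.01 and 14.0 CPM in these libraries against 0.779 to 2.71. Between the 2 DMSO libraries Otx2 differed by −2.22, Lef1 by 2.7 and Zic2 by 1.62 (log2, replicate 2 minus replicate 1), differences exceeded by 0.67%, 0.25% and 2.29% of tested genes.

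The fitted TT-seq changes of the members depended on those libraries, which were singled out by values of the members themselves. The values of Otx2 against DMSO were 0.94 ± 0.67 (2 h) and 0.99 ± 0.67 (6 h) with all libraries, and 0.22 and 0.26 without DMSO replicate 2. Those of Zic2 were −1.06 ± 0.67 and −1.28 ± 0.68, and without that library −0.0043 and −0.23. Within replicates 1 and 2 Zic2 stood at −0.36 and −1.38 (2 h), −0.25 and −1.85 (6 h) and −0.63 and −0.07 (24 h). Otx2 stood at −0.03 and 2.62 (2 h) and 0.18 and 2.54 (6 h) in the same way. At 24 h Otx2 stood at 0.05 ± 0.68 with both libraries and at −0.03 without both. Lef1 stood at −1.05 ± 1.02 (2 h), −1.59 ± 1.08 (6 h) and 0.95 ± 0.95 (24 h), and at 0.96, 0.41 and 2.96 without DMSO replicate 2. Without both libraries its 24 h value was 0.79, and that of Zic2 was −0.61, against −0.19 with them.

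Dnmt3a measured 25.3 and 40.6 CPM in DMSO, then 27.8 and 21.4 (2 h), 23.7 and 24.1 (6 h) and 18.8 and 28.3 (24 h). The changes of Dnmt3a were −0.43 to −0.48, with an SE of 0.27 each, and without DMSO replicate 2 they were −0.03, −0.07 and −0.08. At 24 h Dnmt3a stood at −0.41 without both libraries that stood apart, and at −0.43 and −0.52 within replicates 1 and 2. Dnmt3b ranged from 36.1 to 84.5 CPM over the 8 libraries and Sall2 from 2.15 to 3.66, and the groups of both overlapped at each time. Fgf5 had 0 or 1 read and Pou3f1 1 to 10 reads in each library and were not tested. On the strand opposite to Otx2 lies the non-coding gene Otx2os1, whose 153 to 880 TT-seq reads followed the same libraries, with its lowest counts of 153 and 263 in DMSO replicate 2 and 24 h replicate 2. It had at most 15 reads in an RNA-seq library.

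The RA table asked how depletion bears on differentiation. Before RA, after 24 h of dTAG-V1, 0 of the 7 tested members were called by edgeR, against 6.4% of the 15915 tested genes, with 1 member at an unadjusted p under 0.05 and 0 called by DESeq2. That member was Otx2, at 10.7 and 10.1 CPM in DMSO and 17.3 and 18.9 with dTAG. Both depleted libraries lay above both controls, by 0.80 ± 0.14 (adjusted p = 0.168), which is opposite in sign to the 24 h value of −0.31 ± 0.07 in the time course. Dnmt3b measured 191 and 177 CPM in DMSO and 147 and 141 with dTAG, a change of −0.35 ± 0.08 that lay under the fold tested, without overlap of the libraries.

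**Figure D3:**
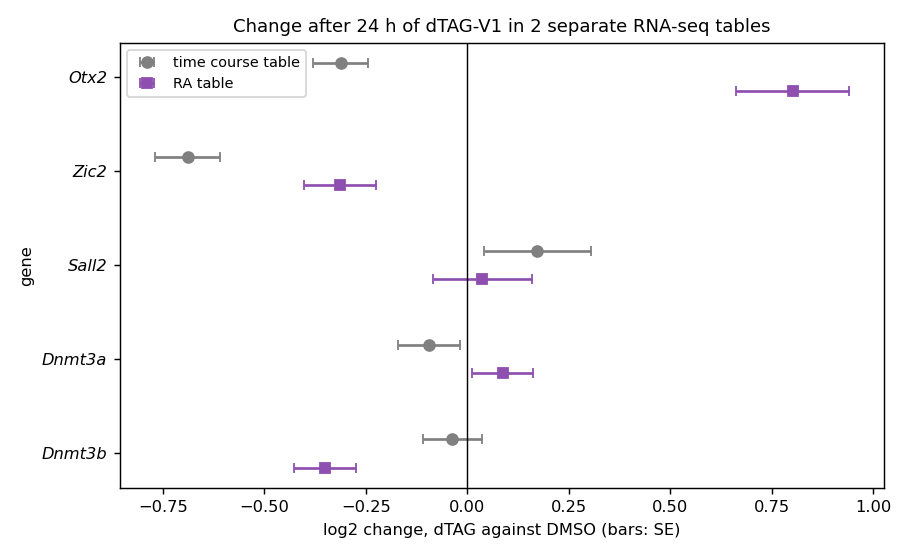
Log2 change after 24 h of dTAG-V1 (x axis, bars are SE) of the 5 members tested in both RNA-seq tables (y axis), grey circles for the time course and purple squares for the RA table. Otx2 lies on opposite sides of 0, at −0.31 and 0.80, and Zic2 lies below 0 in both, at −0.69 and −0.31.

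The 2 tables were therefore fitted together from their counts, a comparison chosen after these values had been seen. The 24 h change of Otx2 was higher in the RA table than in the time course by 1.09 ± 0.14 (adjusted p = 3.83e-05, quasi-likelihood test over 14360 genes), and its DMSO level was lower there by 2.76 on the log2 scale. Pou3f1 was the other member called, at −2.52 ± 0.71 (adjusted p = 0.0374), a call that rests on 1 and 3 reads in the DMSO libraries of the time course and was lost in 7 of 8 fits that left out 1 library. Of the genes tested, 1.26% were called higher and 1.39% lower. In DMSO, Dnmt3b was higher in the RA table by 1.64, Lef1 by 2.31 and Pou3f1 by 3.23 on the log2 scale. Tables and any difference in culture between them cannot be told apart.

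RA with its medium, in DMSO cells, moved 6 of the 7 tested members, 3 up and 3 down, where 25.8% and 18.1% of the 15915 tested genes were called higher and lower. The 3 that rose were Pou3f1, Dnmt3a and Sall2, and the 3 that fell were Otx2, Dnmt3b and Lef1. Otx2 went from 10.7 and 10.1 CPM to 0.309 and 0.273, which is 7 and 4 reads, a change of −5.11 ± 0.28 (adjusted p = 2.9e-12). It was the largest change among the members and left both RA libraries with few reads.

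Pou3f1, a POU factor of the epiblast that is also active in neural progenitors, went the other way. Its level was 1.16 and 2.06 CPM before and 15.2 and 16.9 after RA in DMSO, a rise of 3.32 ± 0.22 (adjusted p = 9.93e-11). Sall2 rose from 17.2 and 16.2 to 39.8 and 45.1 CPM, by 1.34 ± 0.12 (adjusted p = 6.74e-07). Neither gene overlapped between the groups.

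The 2 de novo methyltransferases moved in opposite directions. Dnmt3a rose from 63.0 and 65.5 CPM to 204 and 215, by 1.71 ± 0.07 (adjusted p = 1.38e-12), while Dnmt3b fell from 191 and 177 to 66.0 and 75.4, a change of −1.39 ± 0.08 (adjusted p = 1.18e-09). Per kilobase of exon, Dnmt3b stood above Dnmt3a before RA, at 36.1 against 3.86 CPM, and close to it after, at 13.8 against 12.6. These lengths join all annotated exons, 16642 bases for Dnmt3a and 5106 for Dnmt3b, and the closeness depends on them. In CPM Dnmt3a stood above Dnmt3b after RA. Zic2 measured 50.2 and 45.7 CPM before and 54.6 and 49.7 after, a change of 0.12 ± 0.09 that was not called.

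Lef1 fell from 2.31 and 2.58 CPM to 1.10 and 0.546, a change of −1.47 ± 0.34 (adjusted p = 0.0056). This call rests on 25 and 8 reads after RA. It was lost with DESeq2 (adjusted p = 0.105), with library size as the only scaling (adjusted p = 0.0406) and without DMSO replicate 1, DMSO replicate 2 or DMSO RA replicate 2 (adjusted p = 0.0111, 0.0236 and 0.0722).

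**Figure D4:**
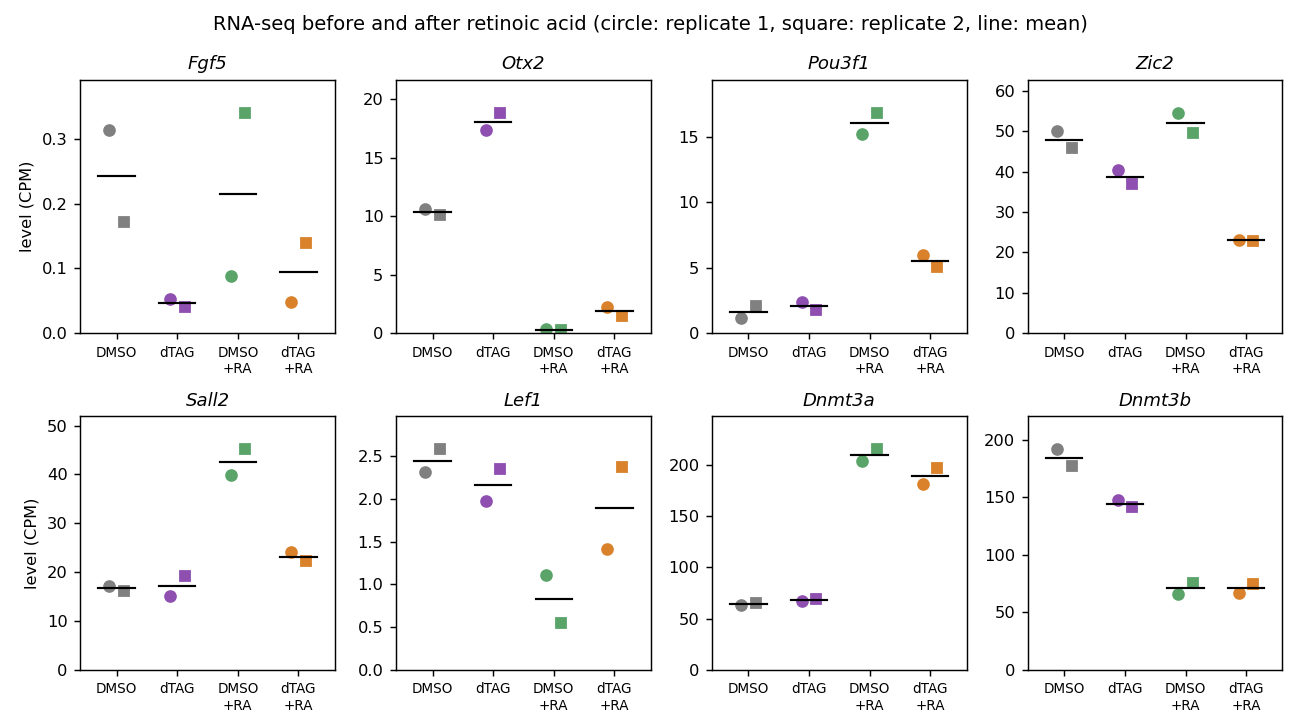
Level of each member in CPM (y axis, linear, scaled to each gene) in DMSO and dTAG before and after RA (x axis), with replicates 1 and 2 as circles and squares and lines as means. After RA the dTAG points of Otx2, at 2.24 and 1.49 CPM, lie above those of DMSO, those of Pou3f1, Sall2 and Zic2 lie below them, and those of Dnmt3b overlap with them.

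In depleted cells 4 of the 7 members were called after RA against before, Pou3f1 and Dnmt3a up and Otx2 and Dnmt3b down. Of all tested genes 25% were called higher and 18.5% lower. These libraries also went from 24 to 48 h of depletion, which cannot be told apart from RA. Otx2 went from 17.3 and 18.9 CPM to 2.24 and 1.49, a change of −3.28 ± 0.18 (adjusted p = 4.74e-12). Pou3f1 went from 2.34 and 1.75 to 5.98 and 5.08 CPM, by 1.45 ± 0.22 (adjusted p = 0.000263), a call that was lost without dTAG replicate 2 (adjusted p = 0.0124). The direction of both matched that in DMSO, with a smaller size.

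Dnmt3a rose from 67.0 and 69.4 to 182 and 197 CPM, by 1.47 ± 0.07 (adjusted p = 3.94e-11). Dnmt3b fell from 147 and 141 to 67.1 and 74.2 CPM, a change of −1.03 ± 0.08 (adjusted p = 4.35e-06), a call lost with library size as the only scaling (−0.64, adjusted p = 0.194). Both methyltransferases were thus called in the same direction as in DMSO. Zic2 measured 40.4 and 36.9 CPM before and 23.1 and 22.8 after, without overlap, a change of −0.75 ± 0.09 that missed the threshold (adjusted p = 0.0273) but passed without a count filter (adjusted p = 0.0074), with only the groups compared (0.00974) and under the thresholds of TT-seq (2.39e-07). Sall2 (0.43 ± 0.12) and Lef1 (−0.20 ± 0.29) were not called.

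After RA the dTAG cells differed from the DMSO cells in 3 of the 7 members, 1 higher and 2 lower, against 9.1% and 7.36% of tested genes. Otx2 was higher in dTAG, at 2.24 and 1.49 CPM against 0.309 and 0.273, or 46 and 32 reads against 7 and 4, by 2.63 ± 0.38 (adjusted p = 7.41e-05). Pou3f1 was lower, at 5.98 and 5.08 CPM against 15.2 and 16.9, a difference of −1.53 ± 0.17 (adjusted p = 2.44e-05). Zic2 was lower too, at 23.1 and 22.8 CPM against 54.6 and 49.7, a difference of −1.19 ± 0.09 (adjusted p = 2.7e-06). In none of the 3 did the groups overlap.

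Sall2 measured 24.0 and 22.3 CPM in dTAG against 39.8 and 45.1 in DMSO after RA, again without overlap, and its change of −0.87 ± 0.11 missed the threshold (adjusted p = 0.0119). It passed without DMSO RA replicate 1 (adjusted p = 0.00953), without a count filter (0.00369), with only the groups compared (0.00485) and under the thresholds of TT-seq (8.64e-07). Lef1 measured 1.41 and 2.37 CPM against 1.10 and 0.546 (1.11 ± 0.35, adjusted p = 0.103). The methyltransferases were not called. The value of Dnmt3a was −0.14 ± 0.07, with both dTAG libraries below both DMSO libraries, and Dnmt3b, whose groups overlapped, stood at 0.00 ± 0.08. Fgf5 had 1 to 6 reads in every library of this table, with or without RA.

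The interaction is the RA change in dTAG minus that in DMSO. The dTAG libraries went from 24 to 48 h of depletion while RA was added, so a different response to RA and a second day of depletion cannot be told apart. The time course values for that day were −0.72 ± 0.08 for Otx2, −0.07 ± 0.09 for Zic2 and −0.03 ± 0.13 for Sall2. None of them was called, and Pou3f1 and Lef1 were not tested there. In the interaction 5 of the 7 members were called, 2 positive and 3 negative, against 13.7% and 18% of tested genes. The fall of Otx2 was smaller in depleted cells by 1.83 ± 0.43 (adjusted p = 0.00163). For Pou3f1 the difference was −1.87 ± 0.33 (adjusted p = 0.000124) and for Sall2 −0.91 ± 0.16 (adjusted p = 0.00015), so the rise of both was smaller. For Zic2 it was −0.87 ± 0.13 (adjusted p = 1.45e-05).

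The interaction of Lef1, 1.27 ± 0.45 (adjusted p = 0.0279), was lost with DESeq2 (adjusted p = 0.0739) and without any of 4 single libraries: DMSO replicate 2, dTAG replicate 1, DMSO RA replicate 2 and dTAG RA replicate 2 (adjusted p = 0.0674 to 0.159). Dnmt3b, at 0.36 ± 0.11 (adjusted p = 0.0146), lay under the log2 change of 0.5 that a call needs, and Dnmt3a, at −0.23 ± 0.10 (adjusted p = 0.0736), was not called. In the 4 called members other than Lef1, the call held without each single library. Under the stricter rule of the other RNA-seq contrasts (glmTreat, fold of 1.5, adjusted p under 0.01) the call of Pou3f1 held, while those of Otx2 (adjusted p = 0.0144), Zic2 (0.0366), Sall2 (0.0618) and Lef1 (0.147) were lost.

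**Figure D5:**
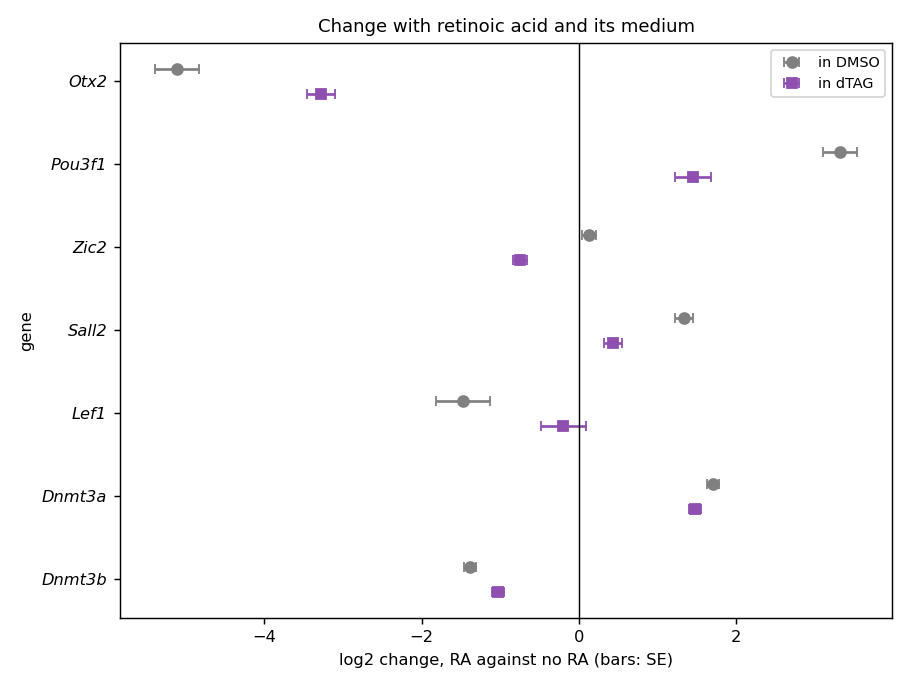
Log2 change with RA and its medium (x axis, bars are SE) in DMSO (grey circles) and dTAG (purple squares) for the 7 tested members (y axis). Otx2 is displaced from −5.11 to −3.28, Pou3f1 from 3.32 to 1.45 and Sall2 from 1.34 to 0.43, while Dnmt3a stays near 1.71 and 1.47.

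Other genes of the same states, 14 in number, were called in both directions. In the time course 11 were tested, and at 72 h 1 was called lower (Zic5, −0.87) and 2 higher, against 12% and 13.7% of all tested genes. The higher ones were the adhesion gene Cdh2 at 3.01 and the transcription factor gene Grhl2 at 2.14. The median change was −0.10 against 0.02 over all genes. After RA, dTAG against DMSO called 2 of 13 lower, Zic5 at −1.65 and the RNA-binding factor gene Lin28a at −1.51, and 1 higher, Foxd3 at 1.64, against 7.36% and 9.1% of all tested genes. In the interaction 6 of 13 were negative and 3 positive, with a median of −0.55 against −0.07 over all genes, where 18% and 13.7% of all tested genes were called.

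Paralogs of the members were called in both directions at 72 h. Dnmt3l, the cofactor of DNMT3A and DNMT3B, was called higher at 48 h by 2.01 and at 72 h by 3.66 over depletion, where neither methyltransferase was called. Sall3 was higher by 2.03 at 72 h. Zic1, with 0 reads in DMSO and 33 at 72 h over both libraries, passed the count filter only through the libraries of 48 and 72 h, so its call had to be upward. Of the 14 paralogs tested, 6 were called lower and 3 higher at 72 h, against 12% and 13.7% of all tested genes. The higher calls include that of Zic1, so their number is not read against its share. The 6 lower ones, named after their values were seen, were Fgf4, Sall1, Zic5 and the LEF1 paralogs Tcf7, Tcf7l1 and Tcf7l2, at −0.87 to −1.67.

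Of 12 naive pluripotency genes, the set that is shut off as the members come on, 5 were called lower and 1 higher at 72 h of depletion, against 12% and 13.7% of all tested genes. Among the lower were Dppa3 at −4.84, Prdm14 at −2.01 and Fgf4, the paralog of Fgf5, at −1.67, and the higher one, named after its value was seen, was Nr0b1 at 1.39. With RA 12 of the 12 were called lower in DMSO and in dTAG (18.1% and 18.5% of all tested genes), with medians of −3.36 and −2.57. The interaction was called positive in 9 (13.7% of all tested genes), with Esrrb at 2.84, Tbx3 at 1.78 and Klf4 at 1.56. After RA their summed level was 443 to 638 CPM in DMSO and 1155 to 1299 CPM in dTAG. Of 10 targets of FGF and ERK signalling, 9 were tested in the time course, and at 72 h 2 were called lower and 2 higher. Of 8 Wnt response genes 6 were tested there, and at 72 h 2 were called lower and 1 higher. Of 7 further genes of DNA methylation, 1 was lower and 2 higher at 72 h, Tet3 at 1.79 and Tet1 at −0.81 beside Dnmt3l. The shares over all tested genes, 12% lower and 13.7% higher, hold for these 3 lists too. At 48 h, where the shares were 7.71% and 10.5%, 4 of the 6 Wnt response genes were called lower and 1 higher, and 1 of the 9 FGF and ERK targets lower. In the interaction, against 18% negative and 13.7% positive over all tested genes, 5 of 7 Wnt response genes were positive and 1 negative (median 0.97). Of 10 FGF and ERK targets 5 were positive and 0 negative (median 0.76), with Etv4 at 1.53, Dusp4 at 1.36 and Spry4 at 1.30.

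Markers of other cell types moved with depletion and RA as well. The summed level of the 7 primitive endoderm markers, none of which was at 0 in an RNA-seq group (1 was at 0 at 6 h of TT-seq), went from 6.43 to 7.63 CPM in DMSO to 18.9 to 19.1 CPM at 72 h, a time when Sox17 had 36 reads against 4 in DMSO, Dab2 87 against 14 and Pdgfra 58 against 12. These counts are so low in DMSO that the filter was passed mainly through depleted libraries, so no count of calls is drawn from them. After RA the sum was 42.1 to 44.6 CPM in DMSO and 57.9 to 60.5 CPM in dTAG, with Gata6 called higher in dTAG (1.18) and Dab2 lower (−1.60) of 7 tested and a median of 0.16. The 6 neural markers summed to 104 to 119 CPM after RA in DMSO and 56.9 to 61.6 CPM in dTAG, but their members were called in both directions. Of the 4 tested there, Pax6 (−1.97) and Nes (−1.55) were lower in dTAG and Zic1 (1.67) was higher. Over depletion the neural sum was 101 to 105 CPM in DMSO and 70.1 to 71.8 CPM at 72 h, where Nes was called lower (−0.75) and Sox1 higher (2.27), against 12% and 13.7% of all tested genes. Zic1 was tested there only through the late libraries. The 4 trophoblast markers summed to 0.367 to 0.570 CPM in DMSO and 1.67 to 1.91 CPM at 72 h, and Ascl2, the 1 tested, had 7 reads in DMSO and 43 at 72 h, so that it too passed the filter mainly through depleted libraries. After RA they summed to 3.21 to 3.84 CPM in DMSO and 9.59 to 11.1 CPM in dTAG, with both tested genes called higher, Ascl2 by 1.50 and Hand1 by 1.40, against 9.1% of all tested genes. The 4 mesendoderm markers summed to 9.48 to 20.0 CPM in both RNA-seq tables, with single genes called: Gsc lower at 72 h (−1.61), Mixl1 and Eomes lower with RA in DMSO (−1.96 and −0.89) and Mixl1 higher in dTAG after RA (2.58). In the interaction Mixl1 (1.98) was positive and Gsc (−1.41) negative. T was called positive too, but passed the count filter only through DMSO and dTAG RA, the groups that enter the interaction with a plus sign, so no direction is drawn from it. The part of such cells in the members' values was not tested.

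The genes whose group means followed each member most closely, over the 8 groups of both RNA-seq tables with each table centred, were drawn from 10134 protein-coding genes. They are given as a description only. Each r is among the highest of that many over 8 groups, and the libraries of a table were scaled together. Otx2 was followed by Eif5 (r = 0.994), Slit2 (0.993) and Liph (0.992), and Dnmt3a by Map3k13 (0.998), Hipk3 (0.996) and Cep350 (0.996). Dnmt3b was followed by Egln2 (0.994), Ddx47 (0.993) and Ddx24 (0.993), Sall2 by Spc25 (0.990), Ube2e1 (0.989) and Col18a1 (0.984), and Zic2 by Ift20 (0.964), Rbx1 (0.963) and Ccsap (0.960). The first neighbour of Zic2 thus followed it less closely than those of the other 4 genes.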

How the data were processed

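TT-seq was done in 8 libraries and RNA-seq in 16, in 12 groups of 2 biological replicates named by the labels. The authors deposited raw read counts per gene for each of the 3 tables, made by mapping to mm10 with STAR and counting on GENCODE genes, for TT-seq by strand with HTSeq and for RNA-seq with the counting mode of STAR, whose strand setting is not given in the sources used here, so reads of overlapping genes there may be shared. The deposited ZFP143 peak list gives each peak's enrichment as a ratio to input and its q-value as −log10, and the deposited CTCF list holds positions only, pooled over DMSO and dTAG; each factor has 1 list without replicates. Other data of the series were not used here.

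Counts were analysed with edgeR 4.0.16 in R 4.3.3, with limma 3.58.1. A gene was tested where over 10 counts were found in 4 or more of 8 libraries. Scaling was by TMM, in 1 fit of 4 groups per table. TT-seq contrasts, the interaction and the comparison of both RNA-seq tables used the quasi-likelihood test (adjusted p under 0.05, absolute log2 change above 0.5), and the other RNA-seq contrasts glmTreat with a fold of 1.5 (adjusted p under 0.01). The filter and these cut-offs for TT-seq and RNA-seq are those of the study, which used DESeq2's Wald test in place of edgeR. p-values were adjusted after Benjamini and Hochberg over all tested genes. In TT-seq, same-numbered libraries deviated together from their group means (r = 0.193 to 0.631 in 6 pairs of groups), and with the replicate number as a block no call among the members changed. Alternatives were DESeq2 1.42.0 with its size factors, library size as the only scaling, no count filter, other thresholds, fits of only the groups compared, and leaving out each library. The members and all gene lists were chosen with earlier results of these data known. All members are named, of each other list at most 3 called genes per comparison, and for each member tested in both RNA-seq tables, with at least 5 CPM on average, its 3 closest genes. Symbols, positions and exon lengths come from GENCODE vM21, matched on the identifier without its version for 55141 of the 55401 genes. Intervals and limits from 0 counts (3 counts) cover counting error only. The fits were tested on simulated data.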

Additional observations from a re-analysis of the deposited data

Results flagged for a closer look

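The change from before to after RA differed between depleted and control cells in 5 members by the test of the difference itself (edgeR's quasi-likelihood test, dTAG minus DMSO). The dTAG libraries went from 24 to 48 h of depletion over that step, so the response to RA and longer depletion cannot be told apart. The differences were 1.83 for Otx2, 1.27 for Lef1, −1.87 for Pou3f1, −0.91 for Sall2 and −0.87 for Zic2 on the log2 scale, each between groups of 2 libraries. That of Lef1 was lost with DESeq2 (adjusted p = 0.0739) and without any of 4 single libraries, and under glmTreat with a fold of 1.5 and an adjusted p under 0.01 only that of Pou3f1 was called.

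The change after 24 h of dTAG-V1 differed between the RA table and the time course by 1.09 for Otx2, with both depleted libraries above both controls in the first and below them in the second, and by −2.52 for Pou3f1, where the time course had 1 and 3 reads in DMSO and the call was lost in 7 of 8 fits that left out 1 library. No outlier test was run within groups, since each held 2 libraries.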

How the results depend on the processing

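Limits of depth and design were as follows. Each group had 2 libraries, Fgf5 was under the count filter in all 3 tables, Pou3f1 in 2 and Lef1 in 1, and leaving out 1 library assumes that the one left varies like the other groups. With the replicate number as a block, no count of called members changed: the counts were 0, 0 and 0 in TT-seq, 0, 1 and 1 against DMSO in the time course and 0, 3, 6, 4 and 5 before RA, after RA, for RA in DMSO, for RA in dTAG and for the interaction. In the RNA-seq tables same-numbered libraries did not deviate together (r = −0.042 to 0.062 and −0.099 to 0.125). The block raised the calls over all TT-seq genes at 24 h to 1214 lower and 1009 higher, from 730 and 361. DESeq2's size factors changed no member's call. Library size as the only scaling moved the median of all tested genes by up to 0.39 (RA in dTAG), and for dTAG after RA it called 762 genes lower and 2089 higher, against 1171 and 1449.

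Without a count filter, 2 members were called at 2 h of TT-seq (Otx2 higher, Zic2 lower), 3 at 6 h (Otx2 higher, Zic2 and Lef1 lower, with 980 genes lower and 338 higher in all, against 506 and 71) and 1 at 24 h of the time course (Pou3f1 higher, adjusted p = 0.0031). Fitting only the groups compared also gave 1 at 24 h (Pou3f1, adjusted p = 0.00799), where it passed the filter only through the depleted libraries, so that the call had to be upward. Each of these 2 settings also called 4 members for dTAG after RA (Sall2 added) and 5 for RA in dTAG (Zic2 added). Over all genes they called 1401 lower and 1803 higher (no filter) or 1255 and 1660 (groups compared) for the first and 3460 and 4876 or 3321 and 4799 for the second. With the thresholds of the other assay, the counts were 1, 2 and 3 at 24, 48 and 72 h of RNA-seq, 1 for 48 against 24 h, 1 for 72 against 48 h, 1 before RA, 5 after RA and 1 for the interaction (Pou3f1). Of 13925 genes this setting called 3066 lower and 3398 higher for 72 h, with 2352 and 2944 for 48 h and 1187 and 1591 for 24 h. It called 940 and 1518 for 48 against 24 h and 1081 and 931 for 72 against 48 h. Of 15915 genes in the RA table it called 1342 and 2302 before RA, 2966 and 3333 after RA and 700 and 713 for the interaction. Without 1 library, the joint comparison of both tables called 1 or 2 members, RA in DMSO 5 or 6, RA in dTAG 3 or 4, dTAG after RA 3 or 4 and the interaction 4 or 5. Within 10000 bp of a start, 2 members had a CTCF peak and 0 a ZFP143 peak, against 50.5% and 20.2% of the 14963 protein-coding genes. In the window from 2000 bp before to 1000 bp after a start, 0 had a ZFP143 peak of at least 10-fold enrichment, against 12.8%. The cause of these moves was not tested.

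Changes of sign were confined to members that were not called. With library size alone, the changes were 0.037 for Dnmt3a and 0.094 for Dnmt3b at 24 h of RNA-seq, 0.038 for Sall2 from 24 to 48 h, 0.065 for Dnmt3a after RA and 0.20 for Lef1 with RA in dTAG. Dnmt3b after RA was −0.030 without a count filter and −0.017 with only the groups compared. Otx2 at 24 h of TT-seq was −0.034 without both libraries that stood apart. Leaving out 1 library turned the sign of uncalled changes only. At 2 h of TT-seq Dnmt3b ranged from −0.12 to 0.51, Lef1 from −1.81 to 0.96 and Sall2 from −0.047 to 0.37. At 6 h Dnmt3b ranged from −0.37 to 0.24, Lef1 from −2.39 to 0.41 and Sall2 from −0.26 to 0.50. At 24 h Otx2 ranged from −1.08 to 1.52, Dnmt3b from −0.81 to 0.13, Lef1 from −1.22 to 2.96, Sall2 from −0.27 to 0.14 and Zic2 from −1.67 to 0.87. In RNA-seq the ranges at 24 h were −0.22 to 0.030 for Dnmt3a and −0.13 to 0.055 for Dnmt3b, and from 24 to 48 h −0.16 to 0.091 for Sall2 and −0.15 to 0.023 for Zic2. In the RA table they were −0.033 to 0.80 for Pou3f1 and −0.15 to 0.20 for Sall2 before RA, −0.54 to 0.21 for Lef1 with RA in dTAG and −0.078 to 0.11 for Dnmt3b after RA. Between the tables the 24 h change of Lef1 ranged from −0.49 to 0.71.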
